A study of Mus musculus with 3 samples.

Results

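Lag3 and Cd4 encode 2 related receptors for MHC class II on T cells, and their RNA was followed in follicular T cells of mouse spleen. They are 2 of the 32285 genes in the deposited count tables, and they were chosen by name, with their raw counts of unique molecular identifiers (UMIs, 1 per captured RNA molecule) summed by sample, cell class and subcluster. Both were measured in every sample and class. Since the pair was picked on these same levels, the levels are given as a description. The samples came from wild-type mice (WT, 2 deposited samples) and from mice with a B cell knockout of Siglec-G (BKO, 1 sample), a sialic acid lectin that dampens B cell signalling. All mice had been immunised with liposomes that carry ovalbumin, and the cells were taken 14 days later. Sorted follicular T cells were run on the 10x 3′ assay. The authors' tables, not the sort, divide them into follicular helper (Tfh) and follicular regulatory (Tfr) T cells. The age and number of the mice in each sample, the driver of the deletion and the surface markers of the sort are not given in the sources used here, so whether CD4 protein was part of the gate is unknown.

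CD4 is the coreceptor of helper T cells: it binds MHC class II beside the T cell receptor and brings the kinase LCK to it. LAG3 is a structural relative of CD4 that arose from the same ancestral gene, binds MHC class II and restrains T cell activation, and it is known to be induced in activated cells, in regulatory T cells and in cells that make IL-10. Tfh cells help germinal centre B cells, which present antigen on MHC class II, and Tfr cells, defined by Foxp3, restrain that response. In the mouse genome (GRCm38) the genes are neighbours on the minus strand of chromosome 6: Lag3 (ENSMUSG00000030124) at 124904361 to 124911705 and Cd4 (ENSMUSG00000023274) at 124864692 to 124888221, with 16139 bp between the end of Lag3 and the start of Cd4.

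Both WT samples come from a single set of cells. Each of the 5554 barcodes in the first WT table recurs among the 5721 of the second, with UMI totals correlated at r = 0.997, so they are named run 1 and run 2 and count as 1 library. Each genotype therefore has 1 library, no difference has a replicate check, and no test was possible. The intervals below cover counting error alone (95%), with no spread between mice. The authors' tables kept 5143, 5117 and 8433 cells of run 1, run 2 and BKO, with median UMIs per cell of 4584, 7527 and 6431, and 13 BKO cells shared a barcode with WT run 2. The 2 runs gave 10.4% of their shared kept cells a different class. The tables total 32518538, 54059000 and 85225125 UMIs. Levels are given in CPM, the UMIs scaled to a common library total. A gene was called higher or lower in BKO when the 3 samples averaged 20 CPM or more and BKO lay 1.5 times or further outside the range of both WT runs.

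Marker genes were read in the labelled classes. Foxp3, the defining gene of Tfr, stood at 356, 331 and 349 CPM in Tfr and at 0.801, 16.5 and 1.33 CPM in Tfh of run 1, run 2 and BKO. Foxp3 may have been used to assign the classes, so this contrast is not an independent check of them. None of the 10 follicular T cell markers was called in either class, for example Cxcr5, at 198, 197 and 231 CPM in Tfh. Of all genes tested, 2.85% were called in Tfh and 3.29% in Tfr, so no call among so few genes is not a result about them. Cd8a, the defining chain of the CD8 coreceptor, did not exceed 0.311 CPM in any subcluster of at least 50 cells, and Cd8b1 ranged from 4.51 to 16.1 CPM. The B cell markers were low in both classes, Ighm apart. Cd79a stayed between 0.572 and 1.18 CPM, Ms4a1 between 0.120 and 0.262 CPM and Cd79b between 1.62 and 7.72 CPM. Pax5 was at 4.80, 4.88 and 8.44 CPM in Tfh and at 1.68, 1.26 and 3.27 CPM in Tfr of run 1, run 2 and BKO. No NK cell marker reached the 20 CPM minimum, and neither of the 2 myeloid markers tested was called. Ighm stood at 382, 393 and 436 CPM in Tfh and 639, 663 and 1020 CPM in Tfr of run 1, run 2 and BKO. Ighm was the only 1 of 9 B cell markers that reached the 20 CPM minimum, and it was called higher in Tfr of BKO, beside the Lag3 call in that class, and the part of Ighm and Pax5 in the Lag3 difference was not tested.

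Lag3 RNA was higher in BKO than in WT in both classes, and Cd4 RNA was slightly lower, although in Tfh its sign turned under another scaling (below 0 by library total, 0.02 by TMM). In Tfh, Lag3 stood at 63.8 CPM in WT run 1 (1196 UMIs), 66.6 CPM in run 2 (1993 UMIs) and 97.1 CPM in BKO (4243 UMIs). In Tfr it stood at 49.3 CPM (410 UMIs), 47.5 CPM (643 UMIs) and 118 CPM (1801 UMIs). The counting interval of BKO, 94.2 to 100.1 CPM in Tfh and 113 to 123 CPM in Tfr, lay above both WT runs in each class. With 0.5 CPM added, the log2 ratio of BKO to the mean of the WT runs was 0.57 in Tfh (1.48-fold) and 1.28 in Tfr (2.42-fold).

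Lag3 passed the size rule in Tfr and just missed it in Tfh. In Tfr, 0.887% of the 6539 genes tested were called higher and 2.4% lower (3.29% in all), and Lag3 ranked number 3 of them all by ratio. In Tfh, 0.396% of 6559 genes were called higher and 2.45% lower (2.85% in all), and Lag3 ranked number 37. The median log2 ratio over all genes was -0.10 in Tfh and -0.09 in Tfr. Scaling by TMM, a trimmed mean of ratios over genes, moved every ratio up by 0.16 in Tfh and 0.12 in Tfr. It turned the counts into 63 higher and 83 lower in Tfh, against 26 and 161, and into 104 and 74 in Tfr, against 58 and 157. Lag3 in Tfh was then called (log2 0.73). It was also called against run 1 alone (0.60), which the labels put in the batch of BKO, but not against run 2 alone (0.54), which they put in another. In Tfr the ratio was 1.25 against run 1 and 1.30 against run 2. With a trend over intron length taken off, the ratio to the WT mean fell to 0.44 in Tfh and 1.13 in Tfr. The counts of WT and BKO came from different Cell Ranger versions, which cannot be told apart from genotype here.

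**Figure D1:**
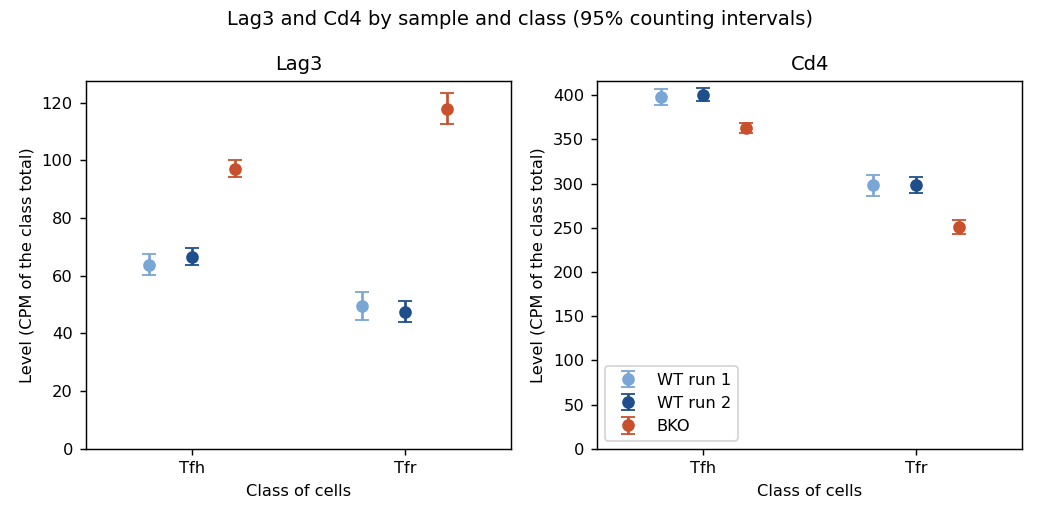
Levels of Lag3 (left) and Cd4 (right) in CPM of the summed UMIs of each class, for WT run 1, WT run 2 and BKO, with 95% Poisson counting intervals. The Lag3 points of BKO lie above both WT runs in each class, at 97.1 CPM in Tfh and 118 CPM in Tfr, and the Cd4 points of BKO lie below them on this scale, with the sign in Tfh turned under TMM scaling (log2 0.02).

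Cd4 differed little between genotypes. It stood at 398, 401 and 363 CPM in Tfh and 298, 298 and 250 CPM in Tfr of run 1, run 2 and BKO. The intervals of the WT runs overlapped, and the BKO interval lay below theirs in each class (358 to 369 CPM in Tfh and 242 to 258 CPM in Tfr). The log2 ratio of BKO to WT was -0.14 in Tfh and -0.25 in Tfr, neither called. Under TMM scaling it was 0.02 in Tfh, the opposite sign, and -0.14 in Tfr.

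By class totals, the order of the classes differed between the genes and, for Lag3, between the genotypes. Within each sample Cd4 was lower in Tfr than in Tfh, with log2 ratios of -0.42 in run 1, -0.42 in run 2 and -0.54 in BKO. Lag3 was lower in Tfr than in Tfh in WT, at -0.37 (interval -0.54 to -0.21) in run 1 and -0.48 (-0.62 to -0.36) in run 2. In BKO it was higher in Tfr, at 0.28 (0.20 to 0.36). None of these ratios reached 1.5 times, which 2.77% of genes passed upward and 2.54% downward in run 1, 2.99% and 2.45% in run 2, and 4.57% and 2.93% in BKO. In all 3 samples together, 2.29% of genes were higher and 1.79% lower in Tfr. The Lag3 order in BKO depended on subcluster makeup. With subclusters weighted by their WT share, Lag3 in BKO was lower in Tfr (88.5 CPM) than in Tfh (96.9 CPM), as in WT.

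Most cells had no Lag3 molecule counted. After each cell was thinned to 2500 UMIs, 10.9%, 11.4% and 17.1% of Tfh cells of run 1, run 2 and BKO held a Lag3 UMI, and 9.35%, 9.68% and 20.6% of Tfr cells. The exact (Clopper-Pearson) intervals of BKO, 16.2% to 18.0% in Tfh and 18.9% to 22.5% in Tfr, lay above those of both runs, which ended at 12.5% and 11.3%. Without thinning the shares were 18.1%, 24.5% and 30.8% in Tfh and 17.9%, 23.5% and 40.7% in Tfr, and these also carry the difference in depth. A Cd4 UMI was found in 61.4%, 60.7% and 57.3% of thinned Tfh cells and in 51.1%, 49.6% and 44.0% of Tfr cells (unthinned 78.5%, 88.9% and 85.1%, and 74.8%, 87.0% and 77.1%).

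Lag3 counts were spread over cells more unevenly than those of Cd4. The variance of Lag3 UMIs per thinned cell was 1.51 to 1.85 times the mean over the samples and classes, against 1.10 to 1.20 times for Cd4. Few cells held 3 or more Lag3 UMIs: 0.991%, 0.692% and 1.30% of Tfh and 0.507%, 0.622% and 1.67% of Tfr cells. The largest count in a thinned cell was 11, in BKO Tfr.

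Free RNA was measurable in BKO, whose table also holds barcodes with 1 to 50 UMIs. In those 907649 barcodes together, Lag3 made up 104 CPM (176 UMIs) and Cd4 343 CPM (579 UMIs), against 102 and 334 CPM over the kept cells. The WT tables hold called cells only, so the same value was not obtained there. The sort leaves no cell type that lacks these genes. Tfh subcluster 0, lowest in Lag3 CPM, held a Lag3 UMI in 1.79%, 1.24% and 3.49% of its thinned cells of run 1, run 2 and BKO. Tfr subcluster 4 held 1 in 0.952%, 2.97% and 14.3%, and the share in other subclusters reached 27.9%.

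The authors' subclusters resolve where Lag3 lies. Tfh subcluster 0 was lowest, with Lag3 at 8.72, 9.31 and 18.8 CPM in run 1, run 2 and BKO. Tfh subcluster 3, which had the most RNA of the helper cytokine Il21 of the Tfh subclusters (135, 152 and 150 CPM), held 118, 129 and 158 CPM of Lag3. Tfh subcluster 6, with Xcl1 and Eomes, held 104, 107 and 159 CPM. The highest WT level was in Tfh subcluster 5, whose cells carry the chemokine Ccl5 at 22037 and 20144 CPM in the WT runs, with Lag3 at 155 and 149 CPM. That subcluster had 359 and 363 WT cells but 11 BKO cells with 4 Lag3 UMIs, so BKO has no usable level there.

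In Tfr, subcluster 1 held the most Lag3 in BKO, at 177 CPM against 72.9 and 79.4 CPM in the WT runs. It was also where Prdm1, the gene of the effector regulator BLIMP-1, was high (94.3, 89.2 and 132 CPM). Tfr subcluster 3 followed with 80.9, 91.5 and 122 CPM, then subcluster 2 with 38.5, 27.1 and 81.5 CPM and subcluster 4 with 21.5, 28.3 and 65.1 CPM. Tfr subcluster 0 was lowest in BKO with 45.9 CPM, against 30.2 and 26.7 CPM. Tfr subclusters 5 and 6 had at most 32 cells in a sample and are left out. Many neighbours in the order overlap in their intervals. Over subclusters of at least 50 cells, the only steps without overlap were those from Tfh 5 to Tfh 3 in run 1 and, in BKO, those below Tfh 3, below Tfh 7 and from Tfr 0 to Tfh 0.

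**Figure D2:**
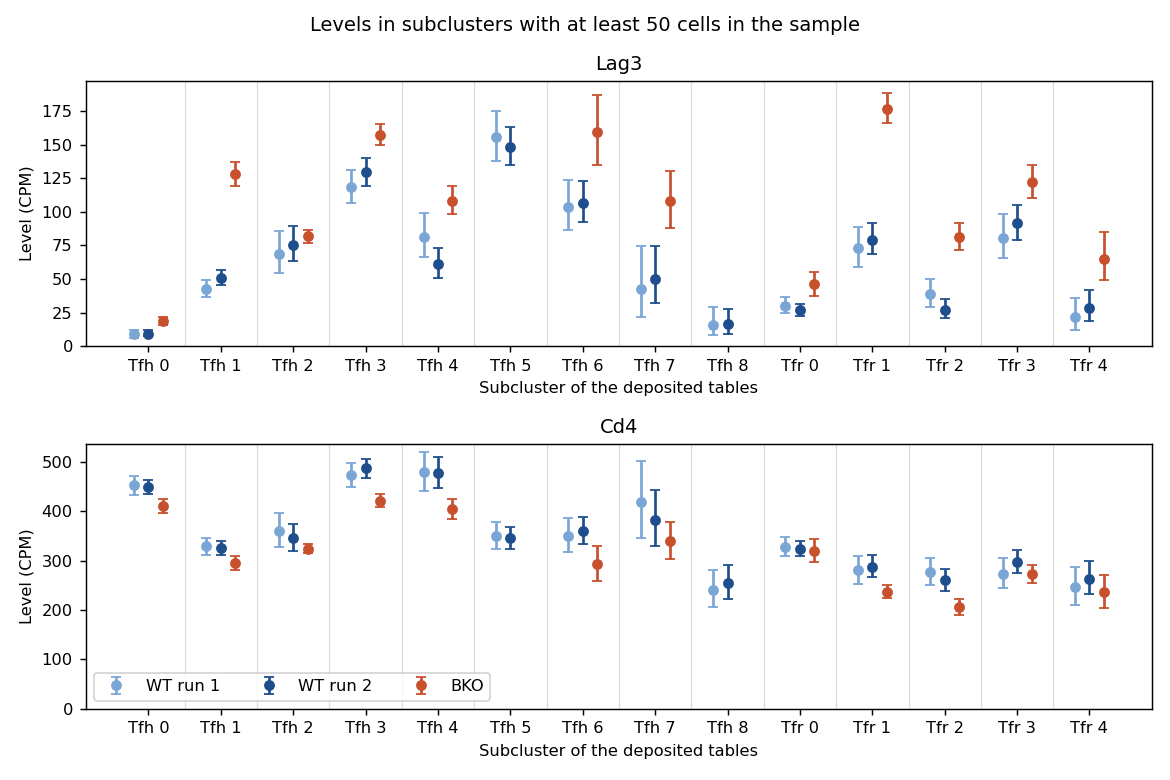
Lag3 (top) and Cd4 (bottom) in CPM for each subcluster with at least 50 cells in the sample, with 95% Poisson counting intervals, for WT run 1, WT run 2 and BKO. Lag3 runs from 8.72 CPM in Tfh 0 to 177 CPM in Tfr 1 of BKO, whereas Cd4 runs from 205 to 487 CPM.

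Lag3 was higher in BKO than the WT mean in 12 of the 12 subclusters with at least 50 cells in each sample, 7 of Tfh and 5 of Tfr, and also with the TMM shift of the class added. The ratios were uneven. Lag3 was called in 6 of the 12: Tfh 1 (2.72-fold), Tfh 7, led by interferon-response genes such as Ifit3 (2.32-fold), Tfr 4 (2.58-fold), Tfr 2 (2.46-fold), Tfr 1 (2.31-fold) and Tfr 0 (1.60-fold). The share of all genes called higher was 0.725%, 3.46%, 2.87%, 1.3%, 1.01% and 0.603% in these subclusters, in the same order. WT Lag3 UMIs were few in Tfh 7 (12 in run 1 and 24 in run 2) and Tfr 4 (14 and 26). The log2 interval of the ratio to run 2 was 0.46 to 1.82 in Tfh 7, 0.50 to 1.93 in Tfr 4 and 0.41 to 1.15 in Tfr 0. Each of these reached below 1.5 times, and those of Tfh 1, Tfr 1 and Tfr 2 did not. In Tfh 0 the ratio was 2.02-fold, but its level was under the 20 CPM minimum. In the 6 subclusters without a call the share was 0.5% (Tfh 0), 0.434% (Tfh 2), 0.23% (Tfh 3), 0.586% (Tfh 4), 1.95% (Tfh 6) and 0.638% (Tfr 3). In Tfh 2 the levels were 68.8, 75.6 and 81.8 CPM (log2 0.18), and the interval of the ratio to run 2 included 0. Tfh 3 was at log2 0.35 and Tfr 3 at 0.50.

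The makeup of the classes differed as well. Tfh 2 held 34.1% of thinned BKO Tfh cells against 6.20% and 6.34% in WT, and Tfh 5 held 0.174% against 9.57% and 10.0%. With the Ccl5-, Xcl1- and Eomes-led subclusters left out, Lag3 in Tfh was at 50.6, 54.0 and 95.8 CPM, 1.82-fold higher in BKO and past the size rule. With the subclusters of at least 50 cells weighted by their WT share, the Tfh levels were 55.5, 59.4 and 96.9 CPM (log2 0.75). In Tfr, subcluster 1 held 36.5% of BKO cells against 16.5% and 17.1%, and it supplied 54.5% of the Lag3 UMIs of the class against 24.1% and 28.9%. Equal weights gave 46.5, 46.3 and 88.5 CPM (log2 0.92 against 1.28).

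Cd4 was lower in BKO in 12 of the same 12 subclusters, with log2 ratios from -0.39 (Tfr 2) to -0.03 (Tfr 0), none called. Of all genes, 0.5%, 1.31%, 1.91%, 2.03%, 4.33%, 6.9% and 10.3% were called lower in Tfh 0, 1, 2, 3, 4, 6 and 7, and 1.19%, 3.79%, 5.98%, 2.14% and 7.79% in Tfr 0 to 4. With the TMM shift added it was lower in 6 and higher in 6. Its highest levels were in Tfh 3, at 473, 487 and 421 CPM, Tfh 4, at 480, 478 and 404 CPM, and Tfh 0, at 452, 449 and 410 CPM. Its lowest were in the cycling cells of Tfh 8, marked by Mki67, at 241 and 256 CPM in WT, and in Tfr 2 of BKO, at 205 CPM. Tfh 0 was thus among the highest for Cd4 and the lowest for Lag3.

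Over the 24 sums of 12 subclusters in WT run 2 and BKO, Lag3 and Cd4 had a Pearson r of -0.16 on log2(CPM + 0.5), 0.10 within WT and -0.23 within BKO. These points share libraries and depth, and the correlations are a description. The gene whose pattern was most like that of Lag3 among 6480 genes was Ptms (r = 0.84, with 0.82 within WT run 2 and 0.86 within BKO). Ptms encodes parathymosin, a small acidic nuclear protein. The next were Mcm6, a subunit of the replicative helicase (0.79), Dusp2, a phosphatase of MAP kinases (0.78), Rgs16, a regulator of G protein signalling (0.76), Eif1 (0.75), the T cell receptor chain Cd3e (0.74), Lsm1 (0.71) and the T cell adaptor Sh2d2a (0.71). Most opposite was Ubash3a, a suppressor of T cell receptor signalling (-0.87). For Cd4 the most alike were Lrrfip1 (0.92), Phf20l1 (0.90), Prex1 (0.89), Tnc (0.88), Dgka, a diacylglycerol kinase (0.88), the TGF-β receptor Tgfbr2 (0.87), Cept1 (0.87) and Xylt1 (0.87). There were 8 genes above 0.7 with Lag3 and 171 with Cd4.

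**Figure D3:**
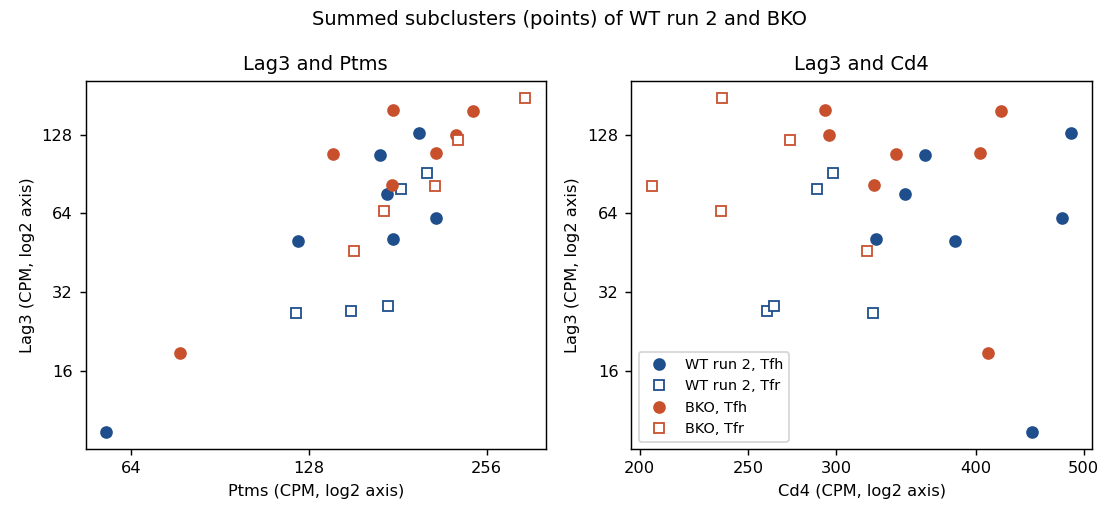
Lag3 against Ptms (left) and against Cd4 (right) in CPM on log2 axes, each point being 1 subcluster of at least 50 cells in WT run 2 (blue) or BKO (orange), with Tfh filled and Tfr open. Subclusters high in Lag3 are mostly high in Ptms (r = 0.84), and no such order is seen for Cd4 (r = -0.16).

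Ptms is also the nearest annotated gene on the other side of Lag3. It lies on the same strand at 124913681 to 124920103 and ends 1975 bp before Lag3 starts. The antisense gene A230083G16Rik overlaps Ptms on the plus strand and was counted at 1.17, 1.44 and 0.641 CPM in Tfh of run 1, run 2 and BKO. Ptms stood at 148, 145 and 184 CPM in Tfh and at 155, 155 and 234 CPM in Tfr of run 1, run 2 and BKO. The Tfr difference was called (log2 0.60) and the Tfh difference was not (0.32). Lag3 was lowest where Ptms was lowest, in Tfh 0, with Ptms at 56.2, 58.2 and 77.4 CPM. Tfr 1 of BKO had 297 CPM, the most among subclusters of at least 50 cells. An exception was Tfh 8, where Ptms was at 222 and 239 CPM in WT and Lag3 at 16.1 and 16.3 CPM.

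Among the 10 other genes tested within 150 kb of Lag3 or Cd4, none was called in Tfh, where 2.85% of all genes were. In Tfr 2 were called higher (against 0.887% of all genes), Ptms and the glycolytic enzyme Tpi1 (53.2, 54.1 and 102 CPM, log2 0.92). The other 8 were between log2 -0.33 and 0.34 in Tfr, and the median of the 10 was 0.06 in Tfr and 0.19 in Tfh. They include Mlf2, at 53.1, 49.8 and 51.5 CPM in Tfr, and Ptpn6, the phosphatase SHP-1, at 92.2, 86.1 and 91.7 CPM. Cd4 itself, 16139 bp on the other side, was not called.

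**Figure D4:**
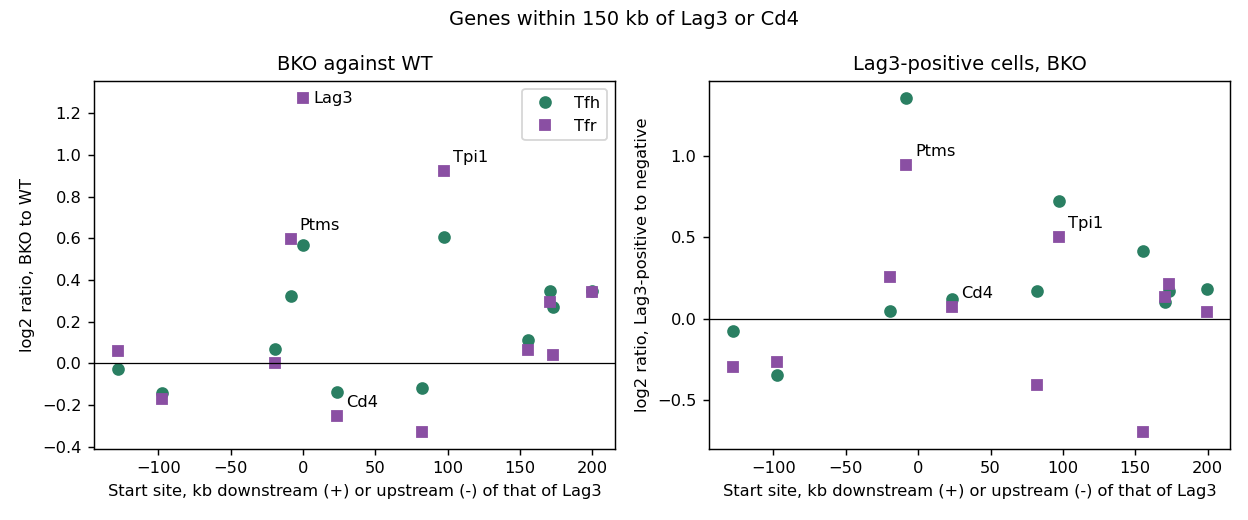
Genes tested within 150 kb of Lag3 or Cd4, placed by the distance of their start site from that of Lag3 in kb. The left panel gives the log2 ratio of BKO to WT and the right panel the log2 ratio of Lag3-positive to Lag3-negative BKO cells, with circles for Tfh and squares for Tfr. Ptms, beside Lag3, is at 1.36 (Tfh) and 0.95 (Tfr) in the right panel, and Cd4 at 0.12 and 0.07.

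Lag3-positive cells, those with at least 1 Lag3 UMI at 2500 UMIs per cell, were then compared with the remaining cells of the same class and sample. They numbered 386, 413 and 1080 in Tfh and 129, 140 and 420 in Tfr of run 1, run 2 and BKO. Tfh 3 gave 29.8%, 29.5% and 33.6% of the positive Tfh cells, Tfh 5 gave 21.5% and 22.3% in WT and 0.185% in BKO, and Tfr 1 gave 24.8%, 27.1% and 49.3% of the positive Tfr cells. Median genes per thinned cell were close, for instance 1328 against 1315 in BKO Tfh and 1346 against 1331 in BKO Tfr. A gene was called where its mean was at least 100 CPM and its ratio was at least 1.5 the same way in all 3 samples. In Tfh, 33 of 1822 genes were called higher (1.81%) and 16 lower (0.878%). In Tfr, 4 of 1855 were called in each direction (0.216% each). Another random draw of the thinning gave 33 and 15 in Tfh but 10 and 2 in Tfr, so the Tfr list depends on the draw.

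Cd4 was slightly higher in Lag3-positive Tfh cells and not detectably different in Tfr. In Tfh it stood at 480 against 403 CPM in run 1, 449 against 404 in run 2 and 391 against 360 in BKO. The log2 ratios were 0.25, 0.15 and 0.12, each with an interval above 0, and none reached 1.5 times. Cells with both genes numbered 263, 277 and 659, against 237, 251 and 619 had the genes been detected independently. A Cd4 UMI was present in 68.1%, 67.1% and 61.0% of Lag3-positive Tfh cells against 60.6%, 59.9% and 56.6% of the others. In Tfr the log2 ratios were 0.07, -0.05 and 0.07, with intervals that included 0, the widest from -0.37 to 0.24 in run 2.

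Ptms was higher in Lag3-positive cells of both classes. In Tfh it was at 306 against 117 CPM in run 1, 281 against 117 in run 2 and 346 against 135 in BKO. In Tfr it was at 257 against 141, 274 against 148 and 361 against 187 CPM. In BKO Tfh, which had the most cells, Ptms stood at 135 CPM in cells with no Lag3 UMI, 310 CPM in those with 1 and 444 CPM in those with 2 or more, and the intervals did not overlap. The level was also higher with 2 or more Lag3 UMIs than with 1 in the other samples and classes, but the intervals of these groups overlapped in Tfh of run 2 (269 and 320 CPM) and in Tfr of run 1 (241 and 323 CPM) and run 2 (234 and 428 CPM). When Lag3-negative cells were weighted to the subcluster makeup of the positive cells, the Ptms ratios stayed at log2 1.22, 1.00 and 1.14 in Tfh and 0.70, 0.78 and 0.82 in Tfr. None of the other tested neighbours reached 1.5 times in all 3 samples of a class.

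The other leading genes of Lag3-positive Tfh cells included chemokines and cytotoxic genes. Ccl5 was at 6404 against 1853 CPM in run 1 and 5525 against 1881 in run 2, and at 88.5 against 22.6 CPM in BKO. Like Ccl5, Ccl4 (351 against 84.1, 329 against 73.3 and 2.22 against 0.153 CPM) and Nkg7, a granule protein (691 against 204, 569 against 189 and 44.8 against 16.3 CPM), passed the CPM minimum through WT. The remaining 6 of the first 10 were Ralyl, the calcium channel gene Cacna1d, the zinc finger gene Tshz2, the adhesion molecule Alcam, the endosome protein Eea1 and the growth factor receptor Igf1r. With the makeup of the subclusters made equal, 8 of the 33 were still called, among them Ralyl, Cacna1d, Tshz2, Ptms, Alcam and Eea1, whereas Ccl5, Nkg7 and Igf1r were not. Ccl4 was also still called, but its level in BKO is too low to bear on the call. The last of the 8 lies outside the first 10 and is not named here.

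Genes lower in Lag3-positive Tfh cells were led by Lmo4, a LIM-domain cofactor, at 53.9 against 225 CPM, 49.4 against 243 and 89.3 against 272 CPM. Lmo4 was the 1 of the 16 that was still called at equal makeup. Next came Rflnb, Gpr183 (EBI2, the oxysterol receptor that positions cells at the follicle border, 187 against 439, 205 against 448 and 167 against 416 CPM), Pde3b, Fchsd2, Plcb4, the kinase Camk4, Crlf3, Emb and Bzw2. Their log2 ratios ran from -2.33 to -0.67 over the 3 samples. At equal makeup Rflnb was still at log2 -1.60, -1.07 and -1.22 in run 1, run 2 and BKO. These values met the ratio set for a call, so Rflnb lost its call through the CPM minimum, not through its ratio.

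In Tfr the genes called higher were Twsg1, a secreted modulator of BMP signals (146 against 63.9, 117 against 57.5 and 149 against 73.8 CPM), Ptms, the ion exchanger Slc24a3 and Sdf4. Those called lower were Fhit, the adaptor Grap2, Ms4a4b and Cd226, an activating receptor. At equal makeup Twsg1, Ptms and Ms4a4b were still called. The next genes by rank were not called, among them the TNF receptor family members Tnfrsf1b and Tnfrsf9 (394 against 271, 380 against 261 and 530 against 320 CPM) and the IL-6 signal transducer Il6st. Downward they were Tespa1, Mgat5, Dpp4, Evl, Plcb4 and Ahcyl2.

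**Figure D5:**
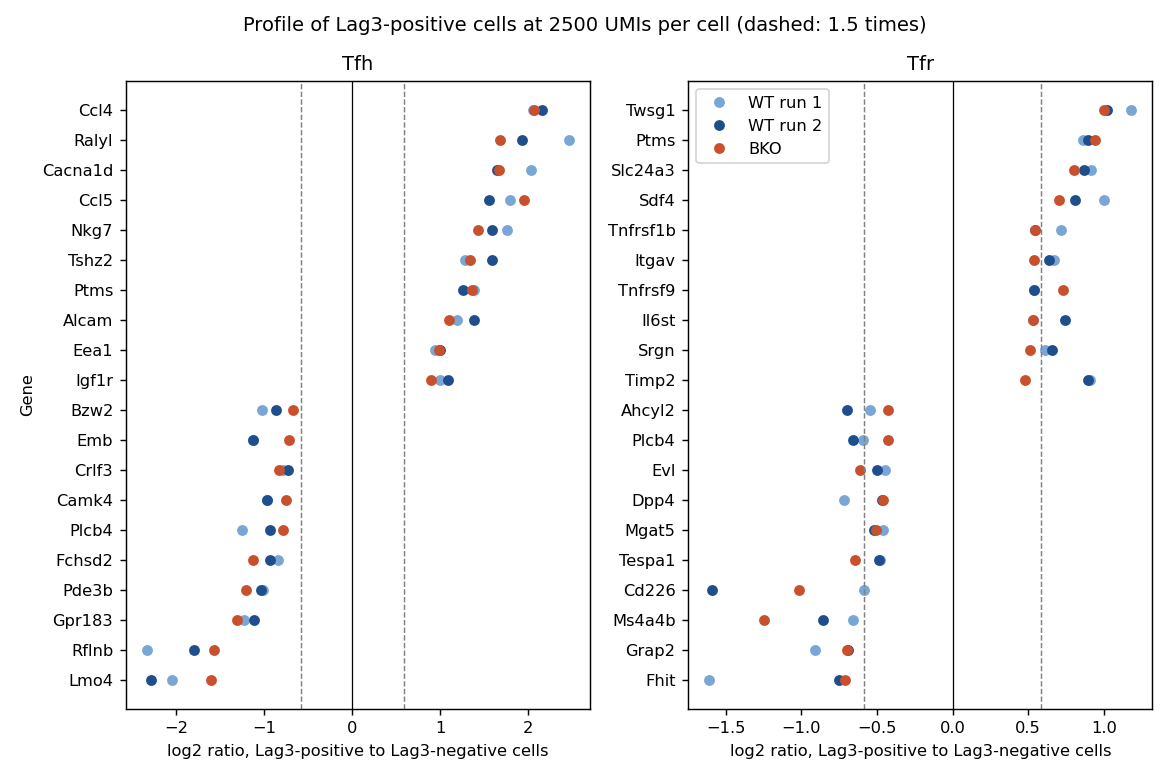
Log2 ratio of Lag3-positive to Lag3-negative cells at 2500 UMIs per cell for the 10 genes of highest and the 10 of lowest rank in Tfh (left) and Tfr (right), with 1 point per sample and dashed lines at 1.5 times. Lmo4 leads the lower Tfh genes at -2.29 to -1.60, and Ptms lies between 0.86 and 1.39 over both classes.

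Of the CD4 and T cell receptor signalling genes, 0 of 20 were called in either direction between BKO and WT in Tfh or in Tfr. Over all genes 2.85% were called in Tfh and 3.29% in Tfr, so 0 of 20 lies near that share. The medians of the 20 were -0.05 and -0.21 against -0.10 and -0.09 over all genes. The 20 include Lck, which CD4 binds (652, 614 and 631 CPM in Tfh), and Cd247, the CD3 zeta chain (825, 817 and 612 CPM). Among the Lag3-positive cells none of 18 was called, and Cd3e was at log2 0.47, 0.48 and 0.46 in Tfh. Of all genes in that comparison, 1.81% were called higher and 0.878% lower in Tfh, and 0.216% each way in Tfr. Of 16 factors that bear on Cd4 or the helper lineage, Satb1 and Ikzf1 were called lower in Tfh, where 2.45% of all genes were. In Tfr 2 of 15 were (Runx1 and Ikzf1), where 2.4% of all genes were. Runx3 also passed in Tfh, but it reached the minimum through WT alone and is not set against that share. Runx3, which silences Cd4 in CD8 cells, was at 52.4, 52.0 and 16.2 CPM in Tfh. It belongs with the CD8 lineage list, of which Runx3, Eomes (63.6, 64.8 and 10.5 CPM) and Xcl1 (27.5, 28.1 and 9.02 CPM) reached the minimum through WT alone, so their number is not a result. Gzmk stood at 72.2, 70.4 and 20.4 CPM and Nkg7 at 249, 230 and 27.6 CPM. These values sit beside the share of the Ccl5-rich Tfh 5, 9.57% and 10.0% of WT cells and 0.174% of BKO cells, whose part in them was not tested.

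LAG3 is 1 of several co-inhibitory receptors. Of 11 tested in Tfr, Ctla4 (357, 355 and 615 CPM) and Tigit (44.2, 48.9 and 77.1 CPM) were called higher in BKO, where 0.887% of all genes were. Lag3 itself was also called, but it was chosen on these levels, so its call is not set against that share. Ctla4 ranged from 345 to 912 CPM over the Tfr subclusters of BKO, and the part of subcluster makeup in its difference was not tested. The median log2 ratio of the 11 was 0.06, with Btla at -0.36 and Cd200 at -0.41. In Tfh none of 10 was called higher, where 0.396% of all genes were. Entpd1, the ectoenzyme CD39, was called lower (43.8, 41.4 and 15.7 CPM). It reached the minimum through WT and is not set against the share of all genes. Pdcd1, the gene of PD-1, was at 236, 238 and 303 CPM in Tfh and was not called in either class.

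Among regulators of Lag3 and of IL-10-producing T cells, Prdm1 (22.9, 23.1 and 55.9 CPM, 2.40-fold) and Ctla4 were called higher in Tfr, of 19 tested, against 0.887% of all genes. The Ctla4 call is the same as that among the co-inhibitory receptors. Prdm1 was high in Tfr 1 (94.3, 89.2 and 132 CPM), which held 16.5%, 17.1% and 36.5% of thinned Tfr cells. The part of that share in the Prdm1 difference was not tested. The transcription factor Nfil3 (17.1, 16.7 and 28.5 CPM) also passed, but it reached the minimum through BKO alone. Maf, an activator of Il10, was at 901, 1035 and 1479 CPM in Tfr and was not called. Il10 itself was at 8.18, 5.61 and 25.4 CPM in Tfr, under the minimum for a call. In Tfh, 0 of 17 were called higher, where 0.396% of all genes were. Of 14 Tfr and effector regulatory genes tested in Tfr, Prdm1 and Capg were higher and Nrp1 and Lrrc32 lower in BKO, against 0.887% and 2.4% of all genes.

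The ligands of LAG3 differed in level. The class II genes H2-Aa, H2-Ab1 and H2-Eb1 stayed at or below 1.48 CPM in both classes, and Fgl1 at or below 0.0655 CPM. Clec4g had no UMI. Lgals3, the gene of galectin-3, was at 14.7, 13.9 and 11.6 CPM in Tfh and 13.1, 11.4 and 17.5 CPM in Tfr. Of the ligand and presentation list 0 of 3 tested genes were called in Tfh or in Tfr, where Ctss was at 168, 174 and 218 CPM and Cd74 at 116, 116 and 128 CPM. The proteases that shed LAG3, Adam10 (160, 163 and 133 CPM in Tfh) and Adam17 (66.6, 67.1 and 52.8 CPM), were not called, and neither were the other members of that list that could be tested (0 of 6 in each class). Over all genes 2.85% were called in Tfh and 3.29% in Tfr, so neither count of 0 sets its list apart.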

How the data were processed

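Single-cell RNA of follicular T cells was measured in 3 deposited samples. The authors' files hold unnormalized UMI counts by gene and barcode, and tables that assign a class and subcluster to every retained cell. Cell Ranger and mm10 appear in the submitters' processing notes, and WT used cellranger 7.0.1 and BKO Cell Ranger 4, per the file headers. These versions differ by default in counting intronic reads, and the sources used here do not give the setting. The kept cells have under 4000 genes and under 10% mitochondrial UMIs. How doublets were treated is not given, and no caller was run.

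Deposited UMI counts were matched to the tables by barcode, summed per sample, class and subcluster, and scaled to CPM. The UMI total equalled that in the authors' tables in 78.2% of kept cells of run 1, 0% of run 2 and 74.0% of BKO. In run 2 the counts summed here were a median of 1.52 times the total in those tables. The authors' classes and subclusters of run 2 may thus rest on other counts, and the effect of this was not tested. Each genotype has 1 library, so no count model was fitted and the fixed rule of size stood in for a test. Ratios carry 0.5 CPM in each term. Poisson and Clopper-Pearson intervals are at 95%. The rules of size were tried on counts drawn by Poisson from a single WT profile, with known changes planted. Such draws hold no spread between libraries or mice, so they cannot check the rules against it. Positions come from GENCODE vM21, where 99.6% of features were found. Python 3.11.15, numpy 2.4.6, scipy 1.17.1, pandas 2.3.3 and edgeR 4.0.16 (TMM) were used.

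Lag3 and Cd4 and all gene lists were chosen with earlier results of these data known. Named genes are both members, their neighbours within 150 kb, list members past the rule or among the 4 most abundant, the 8 most similar patterns, and the 10 highest and lowest genes in Lag3-positive cells. Other list members, genes of opposite pattern and the genes that describe subclusters were named after their values were seen. TCR, immunoglobulin, ribosomal, mitochondrial and unnamed genes were left out of the last 2 rankings. Values of some list members are not reported here.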

Additional observations from a re-analysis of the deposited data

Results flagged for a closer look

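By class totals, the order of the classes for Lag3 differed by genotype. Its log2 ratio of Tfr to Tfh was -0.37 and -0.48 in the WT runs, which hold the same cells, and 0.28 in BKO, a difference of 0.71. This difference was not tested, since each genotype is 1 library. It also depended on subcluster makeup. With subclusters weighted by their WT share, Lag3 in BKO was at 88.5 CPM in Tfr and 96.9 CPM in Tfh, the same order as in WT.

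Cells over 4000 genes, which the authors' tables leave out, also carried Lag3. Those with a Foxp3 UMI held 34.1 CPM in WT run 1 (170 cells), 45.8 CPM in run 2 (250 cells) and 89.5 CPM in BKO (400 cells). Those without one held 64.8, 70.3 and 86.8 CPM. Cd4 in the cells with a Foxp3 UMI was at 294, 287 and 236 CPM.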

How the results depend on the processing

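No paired analysis was possible because BKO has 1 library and the WT samples are 2 runs of the same cells. Under the alternatives, 69 values stayed within the set range and 43 moved, and no called value changed sign. For Lag3 in Tfh (log2 0.57), the ratio was 0.73 with TMM scaling, 0.87 with Ccl5-, Xcl1- and Eomes-led subclusters left out, 0.75 at equal makeup and 0.44 with a trend over intron length taken off. For Lag3 in Tfr (1.28), equal makeup gave 0.92 and the intron trend 1.13. For Cd4 in Tfh (-0.14), TMM gave 0.023, a total without ribosomal, mitochondrial, TCR and immunoglobulin genes -0.075 and the intron trend -0.086. For Cd4 in Tfr (-0.25), TMM gave -0.14 and equal makeup -0.13. Cd4 in WT Tfr against Tfh (-0.42) was at -0.50 without Tfh subcluster 1 and at -0.49 over cells of the same class in both runs. The excess of Lag3-positive cells in BKO over WT was 5.90 percentage points in Tfh and 11.1 in Tfr, and 2.97 and 8.06 at 1500 UMIs, 7.47 and 14.8 at 4000 UMIs and 9.55 and 19.96 without thinning.

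Calls between genotypes numbered 26 higher and 161 lower in Tfh and 58 and 157 in Tfr. With TMM they were 63, 83, 104 and 74, with no minimum 2207, 3753, 2172 and 3364, and at 50 CPM 13, 75, 33 and 90. Against a single WT run the higher calls were 31 to 55 in Tfh and 74 to 92 in Tfr. Calls in Lag3-positive Tfh cells (33 and 16) became 8 and 1 at equal makeup and 56 and 29 at 50 CPM. In Tfr (4 and 4), those higher were 9 at 4000 UMIs, 11 at 50 CPM and 10 with another draw, and those lower were 1 at equal makeup and 2 with another draw. The cause of each shift was not tested. The TMM shift over subclusters was added after the data were seen. Few Lag3 UMIs limit the small subclusters, such as 4 in Tfh 5 of BKO.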
